A study of Mus musculus with 5 samples.

Results

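Tnf, Lta and Ltb encode the cytokines tumor necrosis factor, lymphotoxin alpha and lymphotoxin beta, and are 3 of the 32285 genes in the deposited count matrices. They were chosen by symbol, and their levels, detection and joint detection are described in the Cd3+ cells of each library. A Cd3+ cell is a barcode with at least 500 unique molecular identifiers (UMIs, counts of captured RNA molecules), at most 10% of them mitochondrial, and at least 1 UMI of Cd3d, Cd3e or Cd3g, the CD3 chains of the T cell receptor (TCR) complex. There were 22874 such cells among 25623 barcodes. Each was placed by whether it held a UMI of Irf4 or Nr4a1, genes switched on by TCR signaling, which gave 2973 cells with and 19901 without.

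TNF is made as a membrane protein that the protease ADAM17 sheds, and it signals through the receptors TNFR1 and TNFR2, encoded by Tnfrsf1a and Tnfrsf1b. Lymphotoxin alpha alone is secreted and binds the same receptors. Together with lymphotoxin beta, which anchors the complex in the membrane, it binds the lymphotoxin beta receptor on stromal and myeloid cells, a signal best known from lymph node development and from the fibroblasts of lymphoid tissue. T cells are known to induce Tnf and Lta after TCR engagement, while resting lymphocytes already carry Ltb RNA.

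The study profiled CD4 T cells taken from a naive OT-II mouse (spleen), whose transgenic TCR recognises an ovalbumin peptide on MHC class II. Its 5 groups, each of 1 sample, were the T cells cocultured with antigen-presenting cancer-associated fibroblasts (apCAFs) of the clone sKPC with OVA or with DMSO, the same with the clone rKPC, and the T cells alone without treatment. The apCAFs had been sorted from mouse pancreatic tumors, and cocultures ran overnight. By the labels the T cells of all groups came from OT-II spleen by negative selection; whether each cell carries the transgenic receptor was not tested, and 10.6% to 12.1% of Cd3+ cells per library held Trdc, a gamma-delta TCR gene, and no Cd4 UMI. No source used here ties a barcode suffix to a sample: the labels name 2 samples for matrix G, whose barcodes carry 3 suffixes, and 3 samples for matrix H, whose barcodes carry 2. The libraries are therefore unassigned and called Ga, Gb and Gc (suffixes 1, 2 and 3 of G) and Ha and Hb (suffixes 1 and 2 of H), and no contrast of coculture, clone or peptide was made. Cells are compared within a library, and levels are set side by side between single libraries, with intervals for counting error and no test, since cells are not replicates and no library has one.

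The genes lie side by side on mouse chromosome 17 (GRCm38), within 10913 bases of the major histocompatibility region. Ltb (ENSMUSG00000024399) runs forward from 35194439 to 35196320, Tnf (ENSMUSG00000024401) in reverse from 35199381 to 35202007, and Lta (ENSMUSG00000024402) in reverse from 35203165 to 35205351. Between Ltb and Tnf lie 3060 bases, and 1157 between Tnf and Lta, so Tnf and Lta are read in the same direction with Lta upstream. The annotation places 1 other gene, a microRNA, inside Ltb and 1 inside Lta, and none over Tnf.

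The bases before the start of each gene are shown because Tnf and Lta moved together in these cells and Ltb did not (RefSeq, GRCm38.p6, each on the strand of its gene). They cover chr17:35202008-35202257 (Tnf), chr17:35205352-35205601 (Lta) and chr17:35194257-35194438 (Ltb, where the last 68 bases before the RefSeq start were left out because GENCODE places them inside the gene). Capitals mark matches on either strand to GGAAA, the core bound by NFAT and Ets proteins, to a loose form of the NF-kB site (GGG, then 5 bases of any kind, then CC), and to TATAAA, the TATA box.
Tnf: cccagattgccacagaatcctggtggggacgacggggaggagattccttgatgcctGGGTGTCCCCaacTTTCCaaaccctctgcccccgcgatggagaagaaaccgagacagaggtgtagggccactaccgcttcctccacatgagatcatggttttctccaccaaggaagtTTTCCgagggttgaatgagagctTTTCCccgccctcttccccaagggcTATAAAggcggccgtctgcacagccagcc
Lta: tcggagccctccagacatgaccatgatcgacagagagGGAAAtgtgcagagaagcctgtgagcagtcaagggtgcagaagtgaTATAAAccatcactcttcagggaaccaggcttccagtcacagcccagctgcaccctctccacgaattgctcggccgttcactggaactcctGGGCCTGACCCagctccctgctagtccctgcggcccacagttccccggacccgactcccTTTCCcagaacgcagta
Ltb: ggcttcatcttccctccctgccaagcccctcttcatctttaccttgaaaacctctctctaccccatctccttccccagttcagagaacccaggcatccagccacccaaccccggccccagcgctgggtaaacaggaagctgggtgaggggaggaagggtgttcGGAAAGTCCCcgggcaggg
In the 250 bases before the RefSeq start, GGAAA stood at 3 places for Tnf, 2 for Lta and 1 for Ltb, and 55.57% of 32851 mouse promoters held it. The NF-kB form stood at 1 place for Tnf, 2 overlapping places for Lta and 4 for Ltb, and 45.8% of promoters held it. In Ltb 1 of these overlaps the GGAAA match, and the others overlap each other in the bases not printed. TATAAA stood once in Tnf, 29 bases before the start, once in Lta, 167 bases before it, and not in Ltb, and 12.37% of promoters held it. The letters TGANTCA (AP-1), TGACGTCA (CRE), CCGGAA (Ets) and GCGNGGGCG (Egr) were not in these windows, and 6.749%, 1.546%, 12.03% and 4.697% of promoters held them. These are matches of letters and show no binding.

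Over all Cd3+ cells, Tnf and Lta stood high in Ga and Gc and low in Gb, Ha and Hb, while Ltb stood at nearly one level in all 5 libraries. Levels are counts per 1000000 UMIs of the cells (CPM), with exact 95% Poisson intervals. Tnf stood at 23.9 CPM in Ga and 22.7 in Gc, and at 3.77 in Ha, 2.83 in Hb and 2.64 in Gb. Lta stood at 24.4 CPM in Ga and 22.2 in Gc, and at 3.54 in Gb, 3.24 in Hb and 2.86 in Ha. The Tnf intervals of Ga (22.5 to 25.3) and Gc (21.5 to 24.0) overlap each other and lie far above those of the other libraries, of which the highest was Ha (3.17 to 4.46). The highest library over the lowest was 9.03-fold for Tnf (7.07 to 11.7) and 8.51-fold for Lta (6.96 to 10.5). The lowest values lie within the background intervals given below, which reach 4.43 CPM for Tnf and 2.93 CPM for Lta. These folds are therefore not ratios of 2 levels known to exceed the background. Ltb stood at 525 CPM in Ha, 515 in Hb, 511 in Ga, 490 in Gc and 469 in Gb, and its highest library was 1.12-fold over its lowest (1.09 to 1.14). In bulk sums of this kind, fewer cells with a gene's RNA and less RNA per cell cannot be told apart.

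Per cell, Tnf and Lta were rare and Ltb was common. A UMI of Tnf was held by 7.73% of Cd3+ cells in Ga, 6.56% in Gc, 2.40% in Ha, 1.88% in Hb and 1.75% in Gb. Lta was held by 7.95%, 6.17%, 2.17%, 2.41% and 2.76% in the same order, and Ltb by between 89.97% (Gc) and 93.5% (Hb). With each cell thinned to 1500 UMIs, which leaves out 96 to 197 shallower cells per library, Tnf was held by 1.96% in Ga, 1.90% in Gc, 0.497% in Ha, 0.314% in Hb and 0.402% in Gb. The thinned share of Lta was 2.06%, 1.82%, 0.372%, 0.497% and 0.469% in the same order, and that of Ltb lay between 48.6% and 53.4%. Barcodes without Cd3 UMIs and with at least 10% of their UMIs from hemoglobin genes and Alas2, red cell genes whose cells should lack all 3 cytokines, give the background of free RNA. These 152 barcodes, at a median of 8627.5 UMIs against 7928 to 8767.5 in Cd3+ cells, held 1 UMI of Tnf, 0 of Lta and 4 of Ltb, or 0.796 CPM (0.0201 to 4.43), 0 CPM (at most 2.93) and 3.18 CPM (0.867 to 8.15). After thinning, 0 of 142 held Tnf, which allows a share of up to 2.56% and so sets no tight limit.

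Tnf was higher in cells with than in cells without Irf4 or Nr4a1 UMIs in the libraries where such cells were many. They were 1322 of 5236 Cd3+ cells in Ga (25.2%) and 1446 of 6419 in Gc (22.5%), but 68 of 3081 in Gb (2.21%), 86 of 4200 in Ha (2.05%) and 51 of 3938 in Hb (1.30%). In Ga, Tnf stood at 69.2 CPM in cells with Irf4 or Nr4a1 UMIs and at 4.33 CPM in cells without, a 16.0-fold difference (13.4 to 19.1). In Gc it stood at 70.0 CPM in cells with them and at 4.33 CPM in cells without, 16.2-fold (13.8 to 19.0). In every library the Tnf level of cells without lay within the background interval of the hemoglobin-rich barcodes (0.0201 to 4.43 CPM). Cells with Irf4 or Nr4a1 UMIs, which held 30.1% of all UMIs in Ga and 28.0% in Gc, held 87.3% and 86.3% of the Tnf UMIs there.

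In the 3 libraries with few such cells, the comparison rests on a handful of UMIs. Tnf had 18 UMIs in the cells with Irf4 or Nr4a1 of Ha, or 17.3 CPM, against 3.37 CPM in cells without, 5.14-fold (2.94 to 8.48). It had 4 UMIs in Gb, 3.52 CPM in cells with against 2.60 CPM in cells without, a ratio of 1.35 (0.357 to 3.63). In Hb it had 2 UMIs, 3.70 CPM against 2.81 CPM, a ratio of 1.31 (0.157 to 4.88). The intervals of Gb and Hb hold both a fall and a rise, and the Ha set also carried erythroid marker RNA at 9907 CPM in cells with against 476 CPM in cells without, and B cell markers at 274 CPM against 8.59 CPM.

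Lta followed Tnf in the 2 libraries with many such cells and was not resolved elsewhere. It stood at 67.9 CPM in cells with and 5.60 CPM in cells without Irf4 or Nr4a1 UMIs in Ga, 12.1-fold (10.4 to 14.3). In Gc it stood at 68.8 CPM in cells with and 4.12 CPM in cells without, 16.7-fold (14.2 to 19.7). The other sets held 3 UMIs (Gb), 4 (Ha) and 2 (Hb), with ratios of 0.737 (0.149 to 2.23), 1.36 (0.363 to 3.59) and 1.14 (0.137 to 4.23). Cells without Irf4 or Nr4a1 UMIs differed far less between libraries: their Tnf ran from 2.60 CPM in Gb to 4.33 CPM in Gc, 1.66-fold (1.25 to 2.25), and their Lta from 2.84 CPM in Ha to 5.60 CPM in Ga, 1.97-fold (1.54 to 2.54).

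Ltb went the other way by a smaller amount. It stood at 390.1 CPM in cells with and 563 CPM in cells without Irf4 or Nr4a1 UMIs in Ga, a log2 difference of -0.53 (-0.57 to -0.49), and at 370 CPM and 537 CPM in Gc, -0.54 (-0.58 to -0.50). In Gb it stood at 253 CPM in cells with and 479 CPM in cells without, -0.92 (-1.09 to -0.75), on 288 UMIs in a set whose fibroblast markers stood at 295 CPM against 41.4 CPM in cells without, and whose myeloid markers stood at 827 CPM against 47.0 CPM, with S100a8 and S100a9 at 0 in cells with. In Ha it stood at 467 CPM and 526 CPM, -0.17 (-0.31 to -0.042), and in Hb at 460 CPM and 516 CPM, -0.17 (-0.35 to 0.015). The lower Ltb of Ga and Gc also showed as detection at equal depth, with 38.6% of thinned cells with and 55.0% of cells without in Ga, and 37.98% and 54.0% in Gc. Both measures are relative to all UMIs of a cell. Without thinning, 81.8% of cells with and 94.3% of cells without held Ltb in Ga, and 81.3% and 92.5% in Gc. Cells that held it had 5.28 UMIs of Ltb on average in cells with and 5.18 in cells without in Ga, and 5.22 and 4.99 in Gc. In Gb, cells of 6000 to 12000 UMIs gave 0.16 on the log2 scale in place of -0.92, and in Ha they gave 0.14, and across the alternatives run the sign of Ltb held in Ga and Gc and turned under at least 1 of them in each of Gb, Ha and Hb. Over all 14756 measured genes (at least 100 UMIs in Cd3+ cells) the median log2 difference was 0.065 as a median of libraries.

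**Figure D1:**
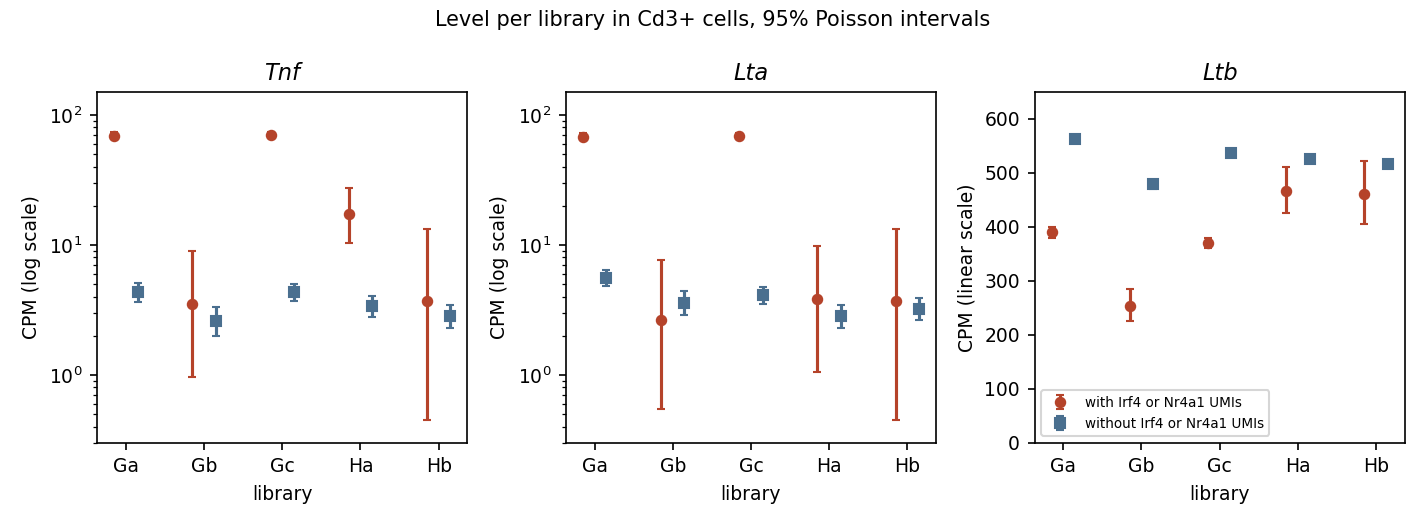
Level in CPM of Tnf, Lta (log axes) and Ltb (linear axis) in Cd3+ cells with (circles) and without (squares) Irf4 or Nr4a1 UMIs, by library, with 95% Poisson intervals. Tnf and Lta stand near 70 CPM in the cells with these UMIs of Ga and Gc and between 2.60 and 5.60 CPM in cells without, while Ltb is lower in the cells with them in Ga and Gc.

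Cells with Irf4 or Nr4a1 UMIs were deeper, with medians of 10198, 9006, 9905, 9724.5 and 9820 UMIs against 8410, 7912, 8210, 8328.5 and 8209 in cells without (Ga, Gb, Gc, Ha and Hb). At equal depth Tnf was held by 6.01% of cells with and 0.578% of cells without in Ga, and by 6.36% and 0.582% in Gc. Lta was held by 6.01% of cells with and 0.709% of cells without in Ga, and by 5.59% and 0.707% in Gc. The cells also differed in markers of other cell types: the 5 myeloid markers summed to 181 CPM in cells with and 47.9 CPM in cells without in Ga, and to 168 CPM and 61.5 CPM in Gc, with none at 0. Markers of regulatory T cells (Foxp3, Ikzf2 and Il2ra) summed to 888 CPM in cells with and 305 CPM in cells without in Ga. In Gc they summed to 826 CPM and 319 CPM. Most of the sum in cells with was Il2ra, also counted among the TCR response genes below. Il2ra stood at 700 CPM in cells with and 23.8 CPM in cells without in Ga. In Gc it stood at 629 CPM and 32.2 CPM, so the sum does not show more regulatory T cells. The 5 erythroid markers went the other way, at 49.2 CPM in cells with and 2040 CPM in cells without in Ga, and at 803 CPM and 1476 CPM in Gc. Without cells holding a UMI of any B, erythroid, myeloid, NK or fibroblast marker the log2 difference of Tnf was 4.20 in Ga and 4.13 in Gc, where all Cd3+ cells gave 4.0 and 4.02. Defining T cell genes were present in every library, with Trac between 3784 CPM in Gc, which stands apart, and 7560 CPM in Ga, and Cd4 UMIs in 59.1% (Ga) to 71.8% (Ha) of cells. Pairs of libraries had 2 to 14 barcode sequences in common.

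The rise of Tnf and Lta was concentrated in the cells with the most Irf4 and Nr4a1 RNA. In Ga, Tnf stood at 4.33 CPM in cells with 0 such UMIs, 10.0 with 1, 5.31 with 2, 9.90 with 3 to 5 and 112.8 with 6 or more (681 cells). In Gc it stood at 4.33, 9.91, 22.1, 16.5 and 112.3 CPM over the same steps (726 cells in the last). Lta stood at 5.60, 7.95, 9.29, 11.2 and 110.9 CPM in Ga, and at 4.12, 6.39, 4.22, 5.70 and 115.5 CPM in Gc. The intervals of the steps from 1 to 5 UMIs overlap for Lta and, in Ga, for Tnf, and all lie far below those of the last step. Ltb stood at 563, 543, 445, 323 and 327 CPM in Ga over the same steps, and at 537, 477, 445, 254 and 330 CPM in Gc. It was lower at 3 to 5 UMIs than in the steps below, while Tnf and Lta there lay far under their last step. In Gc, however, Tnf at 3 to 5 UMIs (interval 10.8 to 24.1 CPM) lay above its 4.33 CPM at 0 UMIs. Ltb in Gc was higher in the last step (319 to 342 CPM) than at 3 to 5 UMIs (230 to 281 CPM). The steps group cells by UMI count, and an order in time was not tested. The last step was also the deepest, with medians of 11397 (Ga) and 11046 (Gc) UMIs, and at equal depth it held Tnf in 10.0% and 10.9% of cells and Lta in 9.71% and 10.2%.

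**Figure D2:**
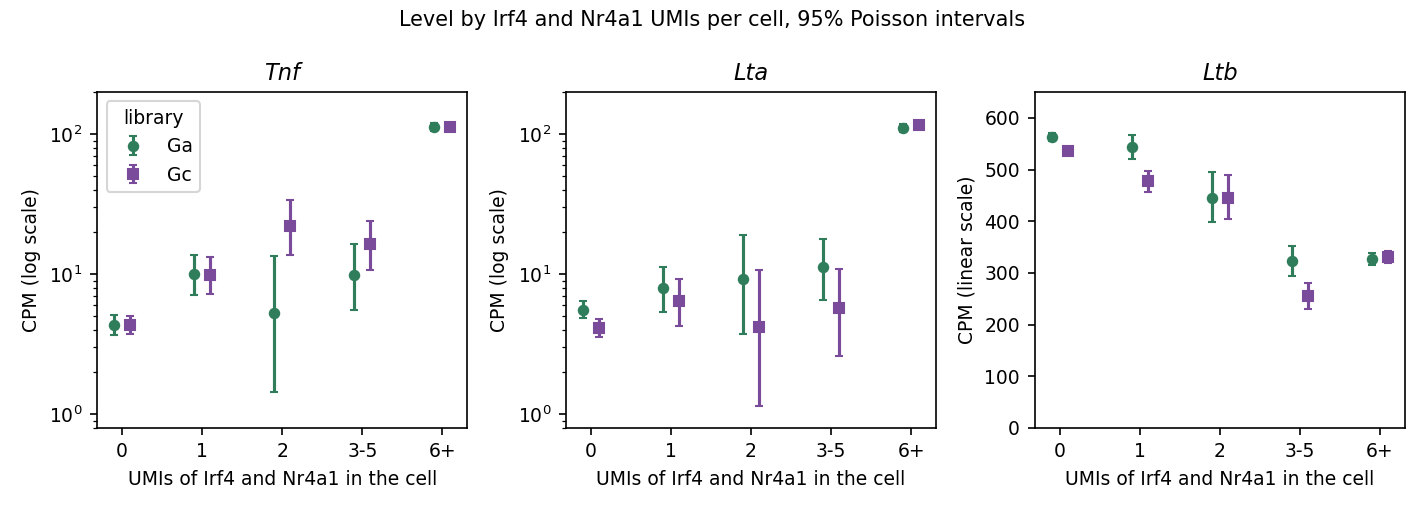
Level in CPM of Tnf, Lta (log axes) and Ltb (linear axis) in Cd3+ cells of Ga (circles) and Gc (squares) by the number of Irf4 and Nr4a1 UMIs in the cell, with 95% Poisson intervals. Tnf and Lta reach 110.9 to 115.5 CPM only in the last step of these 2 libraries. Ltb is lower at 2 UMIs (445 CPM in both) than at 0 UMIs and stands at 254 to 330 CPM in the steps of 3 or more.

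Among the cells with Tnf or Lta a few held much of the RNA. In Ga the 10 cells with the most Tnf held 28.9% of its UMIs and 1 cell held 84, and in Gc the 10 highest held 25.6% and 1 cell held 96. The median cell with a Tnf UMI held 1 in both. Lta reached 45 UMIs in a cell of Ga and 39 in 2 cells of Gc, and its 10 highest cells held 23.0% and 23.2%. Without the highest cell, Tnf in cells with Irf4 or Nr4a1 UMIs stood at 63.5 CPM in Ga and 64.5 CPM in Gc. The Poisson intervals treat UMIs as independent and do not cover this spread between cells.

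Lta was far more common in cells with Tnf than in cells without it in Ga and Gc. After thinning to equal depth, Lta was held by 31 of 100 cells with a Tnf UMI in Ga (31.0%, exact interval 22.1 to 41.0) and by 1.48% of cells without one (1.16 to 1.85). In Gc it was held by 25 of 118 cells with a Tnf UMI (21.2%, 14.2 to 29.7) and by 1.44% of cells without. These shares rest on 1 random draw, whose spread the intervals leave out. Among cells of at least 2000 UMIs, drawn and thinned anew, Lta was held by 15 of 89 cells with Tnf (16.9%) in Ga. In Gc it was then held by 28 of 103 (27.2%), so the order of Ga and Gc was reversed. Cells without Tnf then held it in 1.35% (Ga) and 1.385% (Gc). In the first draw the other libraries had 12 (Gb), 20 (Ha) and 12 (Hb) thinned cells with Tnf, of which 0, 1 and 0 held Lta. A difference was therefore not detectable at this depth in Gb and Hb (0 of 12 allows up to 26.5%). Within the cells with Irf4 or Nr4a1 UMIs, Lta was held by 38.5% of cells with and 3.94% of cells without Tnf in Ga, and by 27.8% and 4.08% in Gc. Among cells with a Cd4 and no Trdc UMI, drawn and thinned anew, Lta was held by 4 of 35 cells with Tnf (11.4%) and 1.33% of cells without in Ga, and by 1 of 37 (2.70%) and 0.975% in Gc, so the joint share was lower in these cells than in all Cd3+ cells, on few cells.

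**Figure D3:**
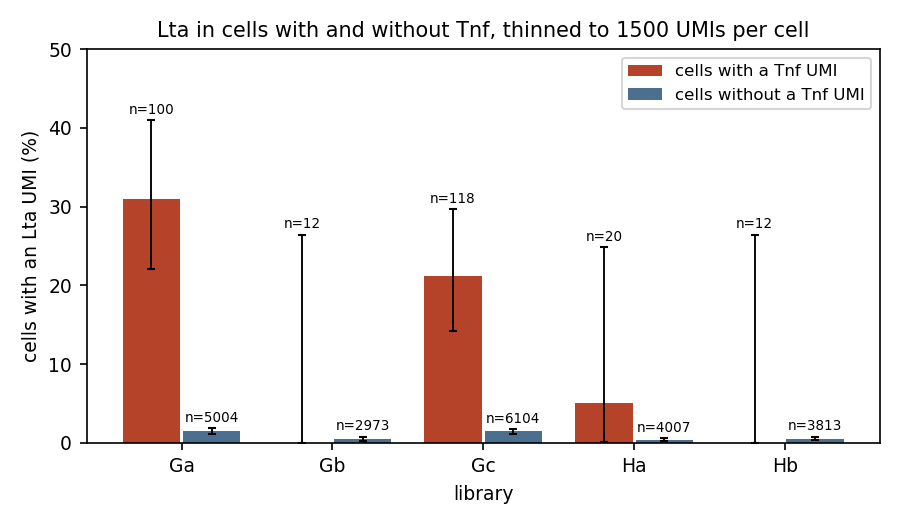
Share of Cd3+ cells with an Lta UMI among cells with (left bars) and without (right bars) a Tnf UMI, by library, with exact 95% intervals and the number of cells. Each cell was thinned at random to 1500 UMIs, a draw whose spread the intervals leave out. The bars of cells with Tnf reach 31.0% in Ga and 21.2% in Gc, and the wide intervals of Gb, Ha and Hb rest on 12 to 20 cells.

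Without thinning, 152 cells of Ga and 148 of Gc held both Tnf and Lta, against 4 in Gb, 5 in Ha and 6 in Hb. Of these, 94.1% in Ga and 94.6% in Gc also held Irf4 or Nr4a1. Cells with Tnf alone held Irf4 or Nr4a1 in 57.7% (Ga) and 55.3% (Gc), cells with Lta alone in 40.5% and 42.7%, and cells with neither in 20.3% and 18.2%. Median depths followed the same order in Ga, from 12405 UMIs in cells with both to 8582 in cells with neither. All 3 cytokine genes were found together in 143 cells of Ga and 138 of Gc.

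Ltb was not lower in cells with Tnf. Among thinned cells with Irf4 or Nr4a1 UMIs, Ltb was held by 52.6% of cells with Tnf (40.9 to 64.0) and 37.7% of cells without in Ga, and by 51.1% (40.3 to 61.8) and 37.1% in Gc. Over all Cd3+ cells Ltb was held by 53.0% of cells with Tnf in Ga and 52.5% in Gc, close to its overall thinned shares of 50.8% and 50.4%. The cells with Tnf numbered 78 in Ga and 90 in Gc among those with Irf4 or Nr4a1 UMIs, and 100 and 118 among all Cd3+ cells.

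Tnf and Lta UMIs were also counted in cells without Irf4 or Nr4a1 UMIs. Cells without Irf4 or Nr4a1 UMIs but with Tnf held a UMI of another response gene (Nr4a2, Nr4a3, Egr1, Egr2, Egr3, Il2ra, Myc, Cd69, Tnfrsf9 or Tnfrsf4) in 50.9% of 116 cells in Ga, 50.8% of 130 in Gc, 51.1% of 90 in Ha, 45.8% of 72 in Hb and 52.0% of 50 in Gb. Cells without Tnf held one in 36.9%, 35.8%, 25.6%, 23.3% and 23.3% in the same order, with median depths of 7996.5 to 9551 UMIs in cells with Tnf and 7911 to 8397.5 in cells without. For Lta the share was 54.2% of cells with it against 36.6% of cells without in Ga, 75 of 150 cells against 35.7% in Gc, 29.2% (20.1 to 39.8) against 26.1% in Ha, 37.2% against 23.4% in Hb and 31.3% (21.6 to 42.4) against 23.5% in Gb, so the intervals of Ha and Gb hold the share of cells without. In cells without a UMI of any of these 12 genes, Tnf stood at 3.27 CPM in Ga, 2.88 in Gc, 2.05 in Ha, 1.90 in Hb and 1.62 in Gb, and Lta at 3.97, 3.15, 2.86, 2.69 and 3.29 in the same order. By its interval the background in hemoglobin-rich barcodes reached up to 4.43 CPM for Tnf and 2.93 CPM for Lta, so the Tnf level of every library, and that of Lta in Gb, Gc, Ha and Hb, whose intervals hold or lie below these limits, cannot be told apart from free RNA. That background was pooled over the libraries, with 30 of its 152 barcodes from Ga, so it sets no limit for Ga alone. The Lta interval of Ga in cells without a UMI of any of the 12 genes was 3.15 to 4.94 CPM. Ltb in the same cells stood between 482 CPM (Gb) and 571 CPM (Ga), far above its background of 3.18 CPM.

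Subsets of Cd3+ cells were separated by lineage genes in Ga and Gc. In cells with a UMI of the coreceptor gene Cd4 and none of Trdc, Foxp3 or Cd8, Tnf stood at 49.2 CPM in cells with and 4.08 CPM in cells without Irf4 or Nr4a1 UMIs in Ga, and at 42.3 CPM and 3.56 CPM in Gc. Lta stood at 36.6 CPM and 5.78 CPM in Ga, and at 43.8 CPM and 3.74 CPM in Gc. In cells without a UMI of any of these lineage genes the levels were higher: with Irf4 or Nr4a1 UMIs Tnf stood at 92.6 CPM in Ga and 78.6 CPM in Gc, and Lta at 97.5 CPM and 100.8 CPM, against 5.67 CPM, 7.06 CPM, 4.98 CPM and 3.65 CPM without them. These cells held 42.9% of the UMIs of all cells with Irf4 or Nr4a1 in Ga, and 57.4% of the Tnf and 61.6% of the Lta. In Gc they held 40.8% of the UMIs, 45.8% of the Tnf and 59.8% of the Lta. Cd4 RNA itself was lower in cells with Irf4 or Nr4a1 UMIs, at 94.7 CPM against 194 CPM in cells without in Ga, and at 103 CPM against 194 CPM in Gc, so a cell without a Cd4 UMI is not shown to lack Cd4.

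Tnf and Lta were also higher with Irf4 or Nr4a1 UMIs in other subsets. Cells with Trdc, the constant gene of the gamma-delta TCR, and no Cd4 UMI held Tnf at 38.6 CPM with and 3.26 CPM without Irf4 or Nr4a1 UMIs in Ga, and at 64.7 CPM and 3.44 CPM in Gc. Their Lta stood at 49.0 CPM and 4.41 CPM in Ga, and at 27.5 CPM and 4.99 CPM in Gc. Cells with Foxp3, the transcription factor of regulatory T cells, and no Trdc numbered 89 in Ga and 95 in Gc. Their Tnf stood at 40.3 CPM in Ga and 122 CPM in Gc, but 1 cell of Gc held 96 of the 159 UMIs, with 3 Foxp3 UMIs and 69191 UMIs in all. Without that cell Gc stood at 51.3 CPM, and Ga without its highest cell at 23.5 CPM. Divided by state, their Tnf stood at 95.8 CPM with (21 cells) and 11.03 CPM without Irf4 or Nr4a1 UMIs in Ga, and their Lta at 47.9 CPM and 18.9 CPM. Ltb was lower in cells with than in cells without Irf4 or Nr4a1 UMIs in the Cd4 cells (433 CPM and 565 CPM in Ga, 403 CPM and 549 CPM in Gc) and in the Trdc cells (382 CPM and 565 CPM in Ga, 425 CPM and 511 CPM in Gc).

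**Figure D4:**
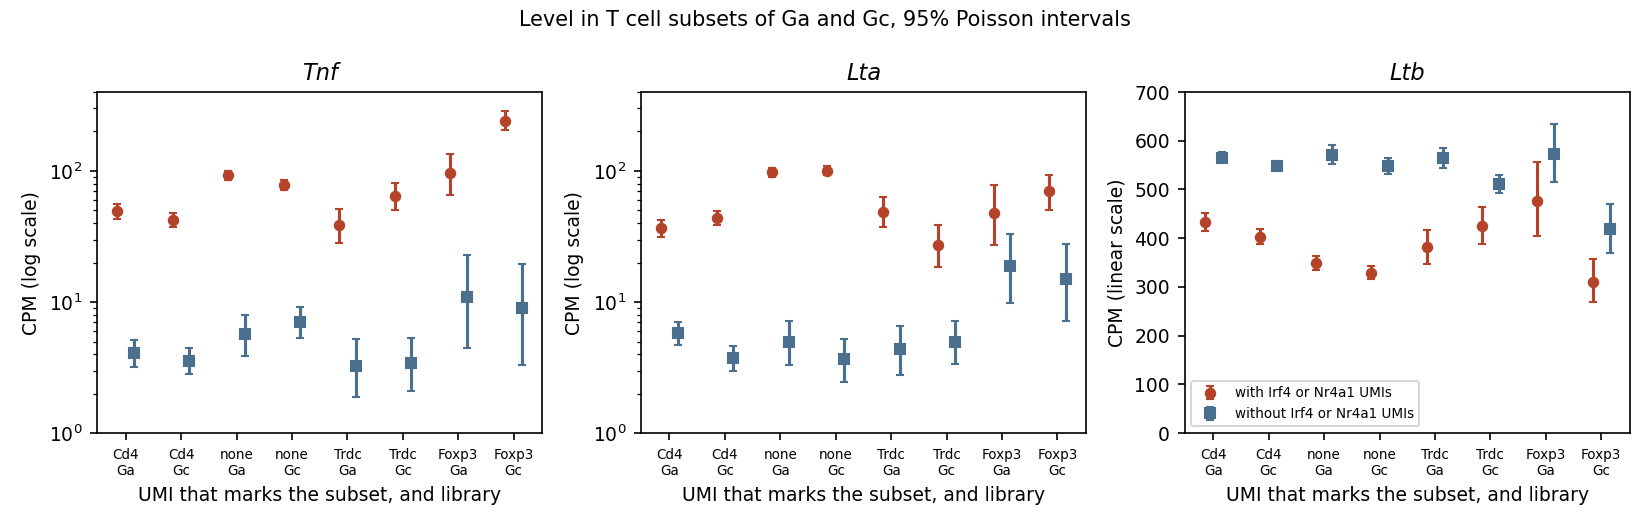
Level in CPM of Tnf, Lta (log axes) and Ltb (linear axis) in subsets of Cd3+ cells of Ga and Gc, with (circles) and without (squares) Irf4 or Nr4a1 UMIs, with 95% Poisson intervals. Subsets hold a UMI of Cd4, of none of Cd4, Cd8, Trdc and Foxp3, of Trdc or of Foxp3. Tnf and Lta are higher in the cells with Irf4 or Nr4a1 UMIs in each subset, and the Foxp3 cells of Gc hold 1 cell with 96 Tnf UMIs.

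In Ga and Gc the receptors of these cytokines differed less than Tnf and Lta. None of the 4 was at least 2-fold higher or lower in all 5 libraries, against 1.78% (higher) and 0.0813% (lower) of all measured genes, and the median of their log2 differences was 0.52 against 0.065 over all measured genes. Tnfrsf1b, encoding TNFR2, was higher in cells with Irf4 or Nr4a1 UMIs in every library, with log2 differences of 0.98 in Ga, 1.08 in Gc, 1.73 in Ha, 1.12 in Hb and 1.77 in Gb. In Ga it stood at 56.0 CPM in cells with and 28.5 CPM in cells without (0.84 to 1.11 on the log2 scale). Tnfrsf1a, encoding the death domain receptor TNFR1, showed -0.29, -0.32, -0.0041, 0.013 and 0.046 in the same order. Tnfrsf14, a receptor of lymphotoxin alpha and LIGHT, showed -0.21, -0.33, 0.48, 0.37 and -1.06. Its values in Ha, Hb and Gb rest on 3, 2 and 1 UMIs in cells with. Ltbr, the receptor of the lymphotoxin complex, is not known as a T cell gene and had 28 UMIs in the cells with Irf4 or Nr4a1 of Ga and Gc together. Its log2 differences ran from 0.12 (Hb) to 3.36 (Gb). The Hb value rests on 0 UMIs in cells with, against 0.838 CPM in cells without, and is positive only through the 0.5 added to counts. The Gb value rests on 13 UMIs, in the set with higher fibroblast and myeloid markers.

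Other ligands of the TNF family rose with Tnf and Lta in part. By the rule over all 5 libraries 1 of 11 measured ligands (Cd70 had too few UMIs) was at least 2-fold higher and 0 lower: Tnfsf8, the CD30 ligand, at 429 CPM in cells with and 75.9 CPM in cells without in Ga and at 396 CPM and 97.8 CPM in Gc, with log2 differences of 1.30 (Hb) to 2.50 (Ga). The median log2 difference of the list was 1.68, a value set by Tnfsf12 and Tnfsf13 on 2 UMIs each in the cells with of Ha. As means of Ga and Gc the list median was 0.89, against -0.028 over all measured genes. The 3 small sets limit that rule, so a second rule, added after the data were seen, used only Ga and Gc, where 8.11% of all measured genes were at least 2-fold higher and 4.04% lower. By it 5 of 11 ligands were higher and 0 lower. Tnfsf11, encoding RANKL, stood at 77.4 CPM in cells with and 7.45 CPM in cells without in Ga and at 76.4 CPM and 7.04 CPM in Gc. Tnfsf14, encoding LIGHT, which also binds the lymphotoxin beta receptor, stood at 7.38 CPM and 0.589 CPM in Ga and at 5.60 CPM and 0.562 CPM in Gc. Fasl and Tnfsf4 (OX40 ligand) were the others, and Cd40lg, at 88.3 CPM and 106 CPM in Ga, was not among them.

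Genes that carry the signal or act on Tnf were mostly within 2-fold. Of all measured genes, 1.78% were at least 2-fold higher and 0.0813% lower in all 5 libraries. By the rule on Ga and Gc 8.11% were higher and 4.04% lower. Of the 18 measured receptor adaptors and kinases 0 were 2-fold higher or lower by either rule and the median log2 difference was 0.013. Traf1, an inducible adaptor, stood at 190 CPM in cells with and 117 CPM in cells without in Ga. Traf5, another adaptor, stood at 36.0 CPM in cells with and 77.7 CPM in cells without in Ga and at 41.6 CPM and 80.5 CPM in Gc, but its log2 difference was positive in Ha (0.45) and Hb (0.11). Of the 14 NF-kB genes (median 0.70) 0 passed in all 5 libraries, and 7 were higher by the rule on Ga and Gc (Nfkb1, Nfkb2, Rel, Relb, Nfkbia, Nfkbib and Nfkbid). Among these Nfkb1, encoding p105 and p50, stood at 1822 CPM in cells with and 311 CPM in cells without in Ga, and Nfkbid, a nuclear IkB protein, at 176 CPM and 19.2 CPM. Of the 4 measured shedding genes (median 0.73, with too few UMIs for Rhbdf1) and the 9 genes that control Tnf mRNA (median 0.26) 0 passed either rule. The shedding median includes Timp3, whose own median of 2.28 is the Ha value on 0 UMIs in cells with. As means of Ga and Gc the shedding median was 0.53. Adam17 stood at 106 CPM and 76.2 CPM in Ga. The mRNA decay factors split, with Zfp36 at 68.7 CPM in cells with and 35.3 CPM in cells without and Zfp36l2 at 197 CPM and 409 CPM in Ga.

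Of 15 transcription factors known at the Tnf promoter (median 0.11), Fos and Egr1 were at least 2-fold higher in all 5 libraries and 0 lower, and Nfatc1 and Fosl2 joined them by the rule on Ga and Gc. Of all measured genes, 1.78% were higher and 0.0813% lower in all 5 libraries, and 8.11% were higher in Ga and Gc. Fos showed log2 differences of 3.24 (Hb) to 3.62 (Gb) and Egr1 of 1.99 (Ha) to 4.82 (Ga). Nfatc1 stood at 232 CPM in cells with and 95.5 CPM in cells without in Ga, while its relatives Nfatc2 (30.1 CPM and 49.0 CPM) and Nfatc3 (263 CPM and 466 CPM) were lower. Of the 6 measured neighbors of the locus (median 0.14; Aif1 had too few UMIs) 0 passed either rule: Lst1, next to Ltb, stood at 8.34 CPM in cells with and 9.01 CPM in cells without in Ga, and Nfkbil1, next to Lta, at 24.1 CPM and 25.2 CPM. Of 10 other TCR response genes 9 were higher in all 5 libraries, all but Myc, and 10 in Ga and Gc, with a list median of 3.81. Nr4a2, Egr2, Egr3, Il2ra and Nr4a3 had the largest medians, from 4.17 (Nr4a3) to 5.90 (Egr3) on the log2 scale. These genes mark the same response as the pair that divided the cells.

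**Figure D5:**
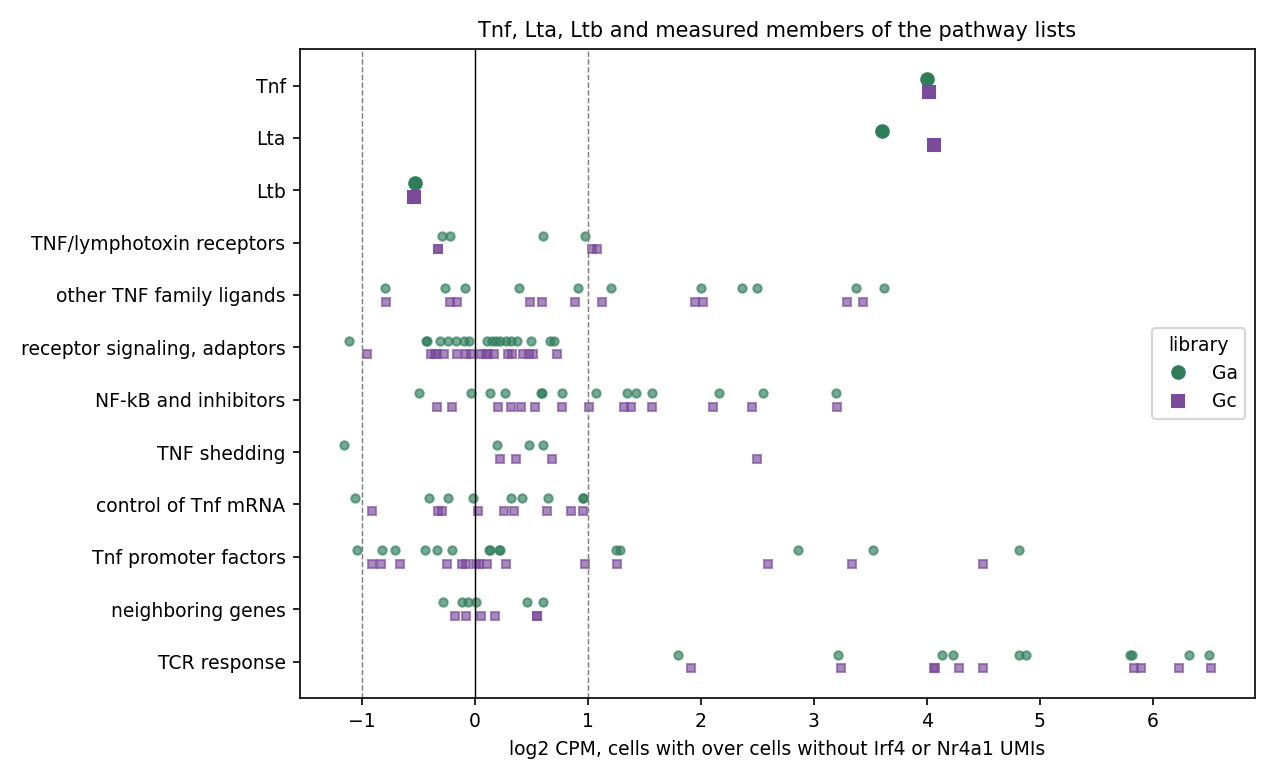
Log2 difference of CPM between cells with and cells without Irf4 or Nr4a1 UMIs in Ga (circles) and Gc (squares), for Tnf, Lta and Ltb and for each measured gene of the lists. Dashed lines mark 2-fold. Tnf (4.0 and 4.02) and Lta (3.60 and 4.06) lie right of every receptor, adaptor and neighboring gene, and Ltb (-0.53 and -0.54) lies between the dashed lines left of 0.

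Genes with profiles most like each cytokine over the 10 pools (5 libraries, cells with and cells without) were ranked by the root mean square difference of centred log2(CPM + 1). For Tnf they were Slamf1 (0.37), Mettl1 (0.40), Gadd45b (0.42), Snhg1 (0.47) and Izumo1r (0.51). In cells with Irf4 or Nr4a1 UMIs, Slamf1, the costimulatory receptor CD150, stood at 275 CPM in Ga, 274 in Gc, 58.8 in Ha, 29.6 in Hb and 35.2 in Gb, against 23.9, 23.1, 23.3, 19.4 and 20.8 CPM in cells without. For Lta they were Hivep3 (0.26), Gramd1b (0.30), Bdh2 (0.34), Csf2 (0.34) and Il2 (0.48), the last 2 being cytokine genes of activated T cells. Hivep3, a zinc finger protein gene, stood at 591, 510.02, 26.0, 29.6 and 31.7 CPM in cells with, against 32.7, 29.5, 29.9, 27.0 and 25.3 CPM in cells without, in the same order. For Ltb they were Rnf123 (0.070), Atp8a1 (0.084), Gm13274 (0.084), Tap2 (0.088) and Ccdc88c (0.089). The pools of a library share its depth and its free RNA, and these likenesses are descriptions over 10 pools. Those for Lta rest on few UMIs in the cells with of Gb, Ha and Hb. There Lta had 3, 4 and 2 UMIs, Bdh2 and Csf2 stood at 0 CPM, and Il2 at 0, 1.93 and 1.85 CPM.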

How the data were processed

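The authors deposited 2 aggregated matrices of UMI counts, unnormalized. Per the submitters' processing notes the tools were Cell Ranger 6.0.0 with the build mm10, while the file headers name cellranger 7.1.0. The sources used here do not give whether intronic reads were counted or depth was equalised. The libraries held 27339447 to 61279131 UMIs in all barcodes. UMIs of Cd3+ barcodes were summed per library and cell set and scaled to CPM (Python 3.11.15, numpy 2.4.6, scipy 1.17.1). Doublets were not called. Intervals are exact at 95%, from the Poisson law for sums and the binomial law for shares and ratios, and cover counting error only. Thinned shares rest on a single random draw, whose spread the intervals leave out. A list gene was measured with at least 100 UMIs, and 0.5 was added to counts for its ratio. On simulated data only the calls of fold differences between summed counts were tested. By rule the text names the receptors, list members at least 2-fold apart in one direction in all libraries, and the 5 nearest profiles; other genes, the subsets and the rule on Ga and Gc were chosen after their values were seen. Alternatives changed filters, the split, depth and thinning. The members and lists were chosen with earlier results of these data known.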

Additional observations from a re-analysis of the deposited data

Results flagged for a closer look

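Barcodes without Cd3 UMIs, which enter no comparison above except as background, also held cytokine RNA beyond the 3 counts that a count of 0 allows. Tnf had 52 UMIs in 54 barcodes with at least 2 myeloid markers, or 32.8 CPM (24.5 to 43.0), with 12 of them in 1 barcode, and Lta had 3. Ltb had 86 UMIs in the same myeloid barcodes (54.3 CPM), 76 in 28 barcodes with B cell markers (209 CPM, 165 to 261), 39 in 15 barcodes with NK markers (284 CPM) of which 16 came from 1 barcode, 4 in 6 barcodes with fibroblast markers and 4 in 152 hemoglobin-rich barcodes. The B cell barcodes held 0 UMIs of Tnf and 1 of Lta. These barcodes were pooled over the 5 libraries, 12, 12, 16, 6 and 8 of the myeloid ones coming from Ga, Gb, Gc, Ha and Hb. What part their RNA has in the levels of Cd3+ cells was not tested.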

How the results depend on the processing

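No paired analysis was possible because each group has 1 sample, so that groups share fewer than 2 replicate numbers, and no library could be tied to a group. Medians of the 5 libraries' log2 differences mix 2 large and 3 small sets and moved with the settings. The median for Tnf, 2.36, became 3.65 without the 6% of cells with the most UMIs, 3.37 without cells holding another type's marker, 3.45 with at least 2 Irf4 and Nr4a1 UMIs and 3.81 within 6000 to 12000 UMIs, in part because sets with 0 Tnf UMIs give no value, and 1.40 to 3.18 with a library left out. That for Lta, 0.44, became 2.57 without other types' markers, 3.08 with at least 2 UMIs, 2.42 by Irf4 alone and 2.65 by Nr4a1 alone, and 0.32 to 2.02 with a library left out. That for Ltb, -0.53, became -0.089 without the deepest 6%, -0.23 without other types' markers, -0.23 in Cd4 cells, -0.71 with at least 2 UMIs, -0.39 by Irf4 alone, -0.10 within 6000 to 12000 UMIs and -0.13 as a mean of per-cell CPM, and -0.53 to -0.35 with a library left out. Within Ga and Gc the direction of each gene was the same under all 11 alternatives: Tnf 3.29 to 4.42, Lta 2.47 to 4.49 and Ltb -0.75 to -0.37. Ltb turned positive in Gb without the deepest 6% (0.14) and within 6000 to 12000 UMIs (0.16), and in Ha with at least 3 Cd3 UMIs (0.064), without the deepest 6% (0.0998), without other types' markers (0.20), in Cd4 cells (0.00094), within 6000 to 12000 UMIs (0.14) and per cell (0.073). In Hb, where its interval held 0, it was positive by Nr4a1 alone (0.13). The log2 span over libraries for Tnf, 3.18, became 2.38 per cell and 2.73 within 6000 to 12000 UMIs (3.08 to 3.18 with a library left out). That of Lta, 3.09, became 2.63 without the deepest 6%, 2.27 in Cd4 cells, 2.61 per cell and 2.15 within 6000 to 12000 UMIs (2.91 to 3.09 with a library left out). That of Ltb, 0.16, became 0.12 without the deepest 6% (0.099 to 0.16 with a library left out). The log2 ratio of the share of cells with Lta between cells with and without Tnf, 3.88 over the 3 libraries that give one, became 4.63 without other types' markers, 3.10 in Cd4 cells, 2.76 with thinning to 4000 UMIs and 1.82 without thinning, the last 2 over 5 libraries (3.86 to 4.13 with a library left out). List members at least 2-fold higher in all libraries were 11, where 1.78% of all measured genes were. They became 18 at 1.5-fold, where no share over all genes was taken, and 12 to 14 with a library left out. In Ga and Gc alone they were 25, where 8.11% of all measured genes were higher. The setting on Ga and Gc was added after seeing the data, as was the depth band for the spans. Under every setting 0 were lower, against 0.0813% of all measured genes in all libraries and 4.04% in Ga and Gc. The cause of these shifts was not tested.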
